A study of Mus musculus with 4 samples.

Results

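Genes of DNA replication and of mitosis were measured in blood progenitors sorted from the foetal liver of mice. The members are 38 genes fixed by name, 18 that act in S phase and 20 that act in mitosis. Each was read from the Affymetrix probe sets annotated to that symbol alone, and the probe set with the highest mean log2 intensity over all arrays was kept. In this way 37 of the 38 were measured, 18 S phase and 19 mitotic genes, among 18193 genes in all. Ccnb1, a mitotic cyclin, had no probe set annotated to it alone. The 37 genes had 84 probe sets, and all 84 matched the reference gene table by gene ID under the same symbol.

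The RNA came from lineage-negative, cKit-positive, Sca1-positive (LSK) cells of female E13.5 embryos of genotype Hes1 GFP/WT, the sort gate that encloses blood stem cells and early progenitors. All 4 arrays share the reporter genotype, sex, age and sort, and they differ in the GFP gate: 3 arrays are labelled HES1-GFP negative and 1 is labelled HES1-GFP positive. The labels do not say how many embryos were pooled or whether the 3 negative samples came from separate sorts, so that their spread may be partly technical. The lone positive array has no spread of its own and was assumed to vary like the negative arrays.

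A dividing cell copies its DNA once in S phase and separates the copies in mitosis. Replication origins are loaded with the ring-shaped MCM helicase, the helicase is switched on by its partners Cdc45 and GINS, and polymerases held by the sliding clamp PCNA copy the strands. In mitosis, cyclin-dependent kinase, the Aurora and Polo kinases, the kinetochore and the spindle motors move the chromosomes, and the anaphase-promoting complex then destroys the mitotic regulators. Transcripts of the S phase genes are switched on by E2F factors, and those of the mitotic genes by the B-Myb and FoxM1 complexes through CHR elements and CCAAT boxes. Foetal liver stem cells are known to cycle actively, unlike most adult stem cells. In RNA from a mixed population, fewer cells in a phase and less of a transcript per cell cannot be told apart.

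The promoters of the S phase and mitotic genes were searched for the letters of these 3 elements, and 3 promoters are printed to show where the letters stand. RefSeq promoter windows (GRCm38.p6, 250 bases before to 50 after each gene start) were found for 31 of the 38 genes. The search used TTTCGCGC, TTTGGCGC, TTTCCCGC and TTTGCCGC for E2F, TTTGAA and TTTAAA for CHR, and CCAAT for the CCAAT box, on both strands. An E2F match was present in 6 of 15 S phase genes and 1 of 16 mitotic genes, against 2.3% of all 32851 promoters. A CHR match was present in 5 of 15 S phase genes and 14 of 16 mitotic genes, against 27.6% of all promoters. A CCAAT box was present in 10 of 15 and 14 of 16, against 37.4% of all promoters. Both CHR and CCAAT letters were present in 4 of 15 S phase and 13 of 16 mitotic genes, against 10.7% of all promoters. Of 14452 tested genes with a promoter window, 3.8% had the E2F letters, 24.7% CHR and 42.0% CCAAT. A match describes the letters of the window and does not show that a factor binds there.

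The stretches below are the 250 bases before the gene start, 5′ to 3′ on the strand of the gene, with E2F, CHR and CCAAT matches of either strand in capitals. Mcm6, at chr1:128359706-128359955 on the minus strand, stands for the S phase class, with 3 E2F matches, of which 2 overlap on opposite strands, and 2 CCAAT boxes. Cdk1, at chr10:69352913-69353162 on the minus strand, is the mitotic gene with an E2F match beside 2 CHR matches and 3 CCAAT boxes. Ube2c, at chr2:164769679-164769928 on the plus strand, stands for the mitotic class, with 1 CHR match and 6 CCAAT boxes, of which 2 overlap.
Mcm6: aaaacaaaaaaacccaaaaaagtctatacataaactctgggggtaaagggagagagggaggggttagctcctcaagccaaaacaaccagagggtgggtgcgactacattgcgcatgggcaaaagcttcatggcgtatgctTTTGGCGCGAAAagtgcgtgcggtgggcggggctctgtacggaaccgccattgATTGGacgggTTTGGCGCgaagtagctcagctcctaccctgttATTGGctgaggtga
Cdk1: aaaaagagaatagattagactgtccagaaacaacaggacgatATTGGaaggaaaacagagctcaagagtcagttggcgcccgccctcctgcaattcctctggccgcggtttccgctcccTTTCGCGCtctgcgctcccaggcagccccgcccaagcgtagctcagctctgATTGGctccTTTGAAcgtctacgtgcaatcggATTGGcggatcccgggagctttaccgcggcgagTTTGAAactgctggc
Ube2c: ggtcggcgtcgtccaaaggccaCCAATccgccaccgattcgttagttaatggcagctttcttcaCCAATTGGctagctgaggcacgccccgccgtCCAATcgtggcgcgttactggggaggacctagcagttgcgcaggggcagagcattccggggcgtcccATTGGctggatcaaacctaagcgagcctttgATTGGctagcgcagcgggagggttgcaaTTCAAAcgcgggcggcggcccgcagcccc

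The labels were checked with the reporter gene and with markers. Hes1, the reporter gene, was at 8.78, 9.07 and 6.70 in negative replicates 1, 2 and 3 and at 6.57 in the array labelled positive, the lowest of the 4. It therefore goes against its label, and every direction here is that of the array labelled positive. Kit, a surface marker of the sort, was at 9.90, 9.72 and 9.68 in the negative arrays and 10.13 in the array labelled positive, while Ly6a, which encodes Sca1, had no probe set of its own. Some lineage marker lists placed negative replicates 1 and 2 apart from the other 2 arrays. The mean log2 level of 9 macrophage markers was 10.65, 10.61 and 8.08 in the negative arrays and 7.88 in the array labelled positive, that of 7 B lineage markers 10.89, 10.89, 8.19 and 7.93, and that of 5 neutrophil and monocyte markers 9.15, 9.41, 11.93 and 11.93. The 5 endothelial markers were at 8.39, 7.98, 6.85 and 6.37, and the 6 erythroid markers at 9.51, 9.41, 9.96 and 9.83. Of the endothelial markers, Tek went the other way (6.19, 6.04, 6.72 and 7.36). Esam did not set replicate 3 apart (7.86, 7.39, 7.63 and 6.46). Of the erythroid markers, Tfrc went the other way (11.88, 11.79, 11.60 and 11.65). Epor (8.36, 7.17, 8.95 and 8.12) and the weak Hba-a1 (4.03, 4.67, 4.55 and 4.60) did not follow the split. The 3 mast cell markers had means of 7.74, 8.03, 7.14 and 7.29, but did not share a direction. Cpa3 was at 11.78, 11.54, 7.34 and 8.15, Mcpt8 at 5.91, 6.24, 7.78 and 7.55, and Ms4a2 at 5.53, 6.31, 6.29 and 6.17. Means of the hepatoblast (8.48, 7.78, 8.08 and 8.24), stem and progenitor (10.22, 9.83, 9.92 and 10.16) and megakaryocyte lists (8.27, 8.41, 8.13 and 8.50) did not split the arrays this way. No marker is at 0, since RMA values have no zero, and the part of other cell types in the values below was not tested.

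Neither class of genes differed between the labelled groups by more than the test could resolve. The median range of a gene over the 4 arrays was 0.38 log2 units in the S phase class and 0.49 in the mitotic class, against 0.54 over all genes. Differences (labelled positive minus the mean of the labelled negative arrays) ran from -0.26 log2 units for Cdc6 to 0.73 for Bub1. The median was 0.11 over the 18 S phase genes and 0.06 over the 19 mitotic genes, against -0.001 over all 18193 genes and 0.04 over the 11016 genes whose probe set lay, like those of all 37 members, above the median level. limma called 0 of 18 S phase and 0 of 19 mitotic genes at a Benjamini-Hochberg adjusted p under 0.05, and 0 genes in the whole table (0% higher and 0% lower). At an unadjusted p under 0.05, limma gave 0 of the 37 members and 734 of all genes, 4.03%. The 95% intervals were wide: the standard errors of the 37 differences ran from 0.19 to 0.59 log2 units, and differences of the sizes measured here could not be resolved with 4 arrays. The difference was above 0 in 13 of 18 S phase genes and 12 of 19 mitotic genes, where 49.8% of all genes lay above 0. The medians depended on the negative arrays used: they were 0.11 (S phase) and 0.01 (mitotic) without replicate 1, 0.06 and 0.08 without replicate 2, and 0.07 and 0.17 without replicate 3.

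**Figure D1:**
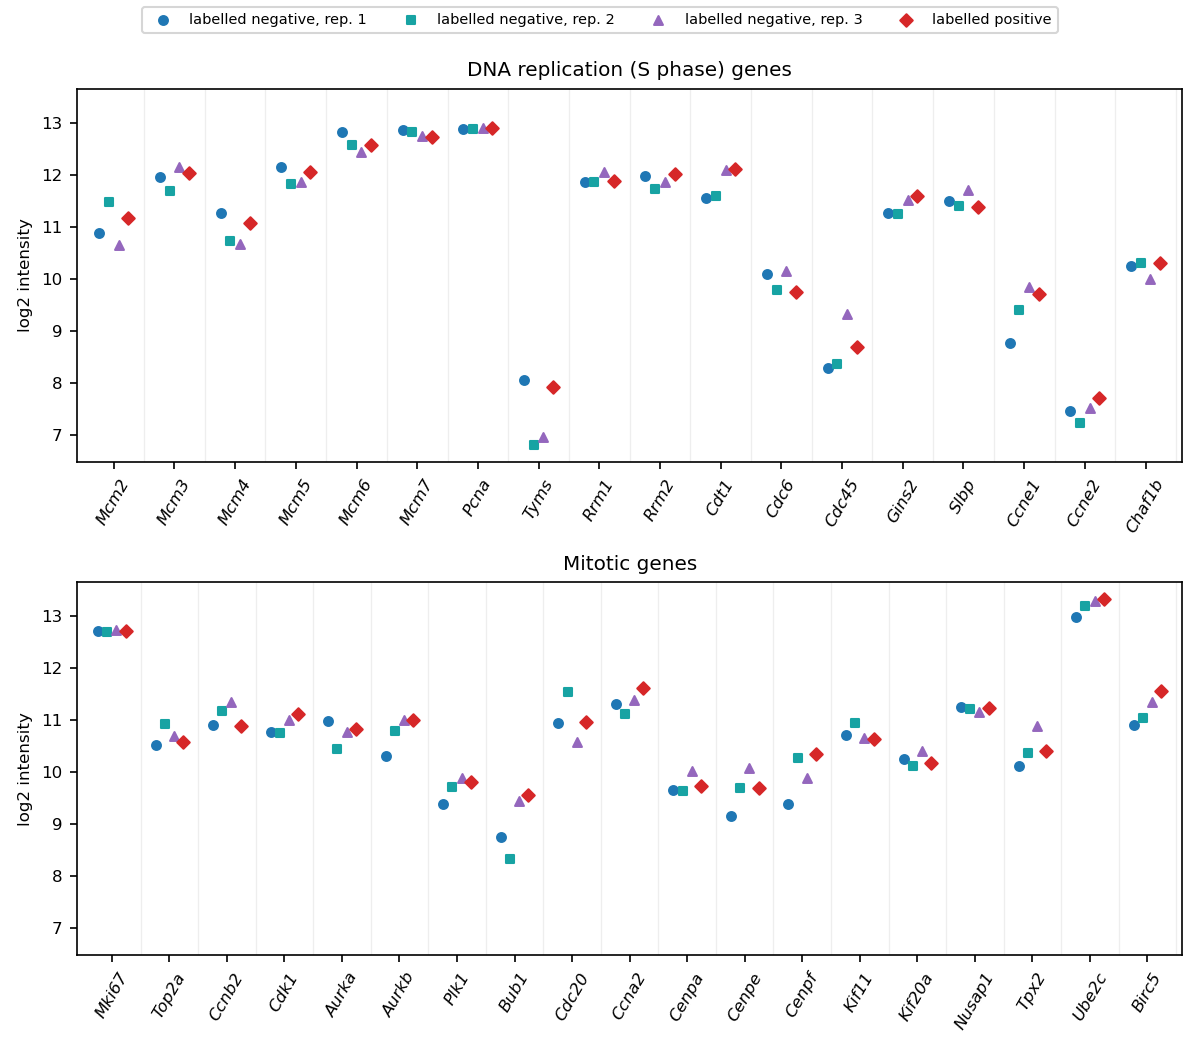
Log2 RMA intensity (vertical axis) of each S phase gene (upper panel) and mitotic gene (lower panel) in the 4 arrays, 1 symbol per array. The 4 symbols of Pcna and of Mki67 nearly coincide, and those of Tyms, Bub1, Ccne1 and Cdc45 are spread over more than 1 log2 unit.

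The array labelled positive lay above all 3 negative arrays in 4 S phase genes (Rrm2, Cdt1, Gins2 and Ccne2) and 6 mitotic genes (Cdk1, Bub1, Ccna2, Cenpf, Ube2c and Birc5). Over all genes 23.6% lay above the negative range. It lay below that range in 3 S phase genes (Mcm7, Cdc6 and Slbp) and 2 mitotic genes (Ccnb2 and Kif11), where all genes gave 23.0%. The members' own shares were 22.2% (S phase) and 31.6% (mitotic) above and 16.7% and 10.5% below. The distance to the nearest negative array in these 15 genes ran from 0.006 log2 units for Slbp to 0.23 for Ccna2. Without negative replicate 3 the counts above were 9 of 18 and 11 of 19, when 36.1% of all genes lay above the narrower range, and without replicate 1 the S phase count was 7, with 30.1% of all genes above. Without replicate 2 the mitotic count below was 4, with 30.3% of all genes below.

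Few members had large differences. An absolute difference of at least 0.5 log2 units was found in 3 of 37 members (Tyms, Bub1 and Cenpf), 8.11%, against 20.1% of all genes. With all 4 arrays 0 of 37 members differed by 1 log2 unit or more, where 6.21% of all genes did. Without negative replicate 1, Tyms differed by 1.04, where 6.08% of all genes differed by at least 1. There 2 members differed by at least 0.5, against 20.3% of all genes. Without replicate 3, Bub1 differed by 1.03, where 8.84% of all genes differed by at least 1. There 5 members (Cdt1, Ccne1, Bub1, Cenpf and Birc5) differed by at least 0.5, against 24.7% of all genes. Without replicate 2 only Cenpf did, by 0.72, against 19.6% of all genes. With probe sets averaged, 0 of 37 members differed by at least 0.5, against 17.2% of all genes. Of the 11016 genes above the median level, 24.8% differed by at least 0.5 and 6.98% by at least 1, while 26.4% lay above and 20.3% below the negative range. The median SD over the 3 negative arrays was 0.18 log2 units in the S phase genes and 0.22 in the mitotic genes, 0.24 over all genes and 0.30 over the genes above the median level.

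The cell cycle lists covered a narrower range across the arrays than the macrophage, B lineage, neutrophil and monocyte, endothelial and erythroid lists. This did not hold for every marker list. Means of the stem and progenitor list ran from 9.83 to 10.22 and of the megakaryocyte list from 8.13 to 8.50. Both ranges were narrower than that of the kinetochore and checkpoint list, from 9.19 to 9.64. Relative to the mean of the negative arrays, the S phase genes had a mean of 0.03, -0.09 and 0.06 log2 units in negative replicates 1, 2 and 3 and 0.12 in the array labelled positive. The mitotic genes had -0.15, 0.01, 0.14 and 0.12 in the same order. The mitotic genes in the array labelled positive thus lay within the spread of the negative arrays, whose SD was 0.15 log2 units (n = 3), and the S phase genes lay above all 3, whose SD was 0.08. The mean over all genes moved between 7.25 and 7.30.

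**Figure D2:**
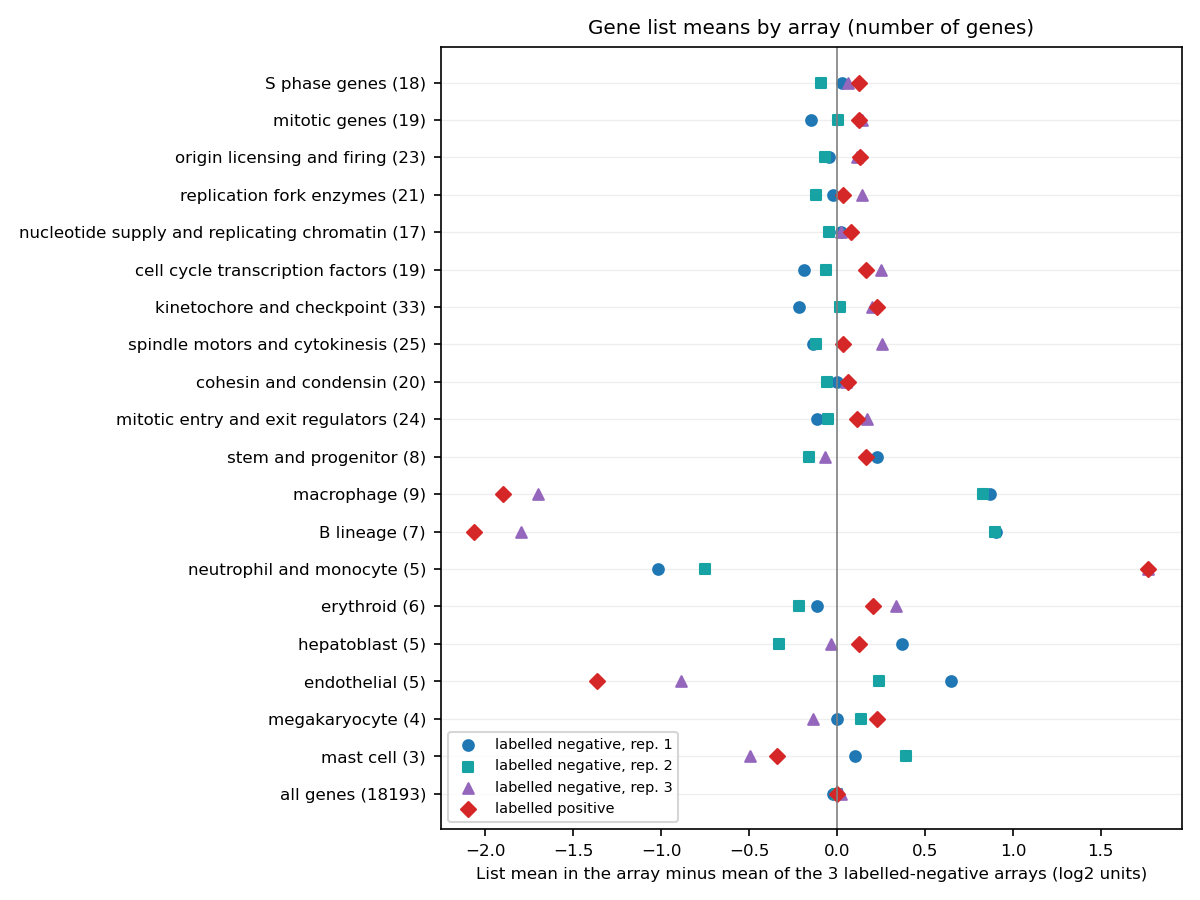
Mean log2 level of each gene list in each array, minus its mean over the 3 arrays labelled negative (horizontal axis, log2 units), with the number of genes in brackets. All 10 cell cycle lists stay within 0.3 log2 units of 0, while the macrophage, B lineage and neutrophil and monocyte lists set negative replicates 1 and 2 apart from the other two arrays.

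The arrays also differed in how often each gave the extreme value. Negative replicate 1 was the lowest array in 8 of 19 mitotic genes and 4 of 18 S phase genes, where it was lowest in 31.7% of all genes. Negative replicate 3 was the highest in 8 mitotic and 7 S phase genes, against 28.5% of all genes. Negative replicate 2 was the lowest in 7 mitotic and 7 S phase genes, against 25.9%. It was the highest in 3 and 2 of them, against 26.8%, and negative replicate 1 was the highest in 2 and 5, against 21.0%. Negative replicate 3 was the lowest in 2 and 4, against 19.5%.

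The MCM helicase subunits unwind DNA at the fork, and their range over the 4 arrays ran from 0.13 log2 units for Mcm7 to 0.81 for Mcm2. Mcm7 was at 12.87, 12.83 and 12.75 in negative replicates 1, 2 and 3 and 12.74 in the array labelled positive, a difference of -0.08 (SE 0.19, 95% interval -0.61 to 0.46). Mcm6 was at 12.82, 12.59 and 12.45 against 12.58, and Mcm5 at 12.16, 11.82 and 11.87 against 12.06. In both, negative replicate 1 was the highest and the array labelled positive lay inside the negative range. Mcm3 was at 11.97, 11.70 and 12.16 against 12.05. Mcm4 was at 11.28, 10.74 and 10.68 against 11.07. Mcm2 was at 10.88, 11.48 and 10.66 against 11.17, with an SD of 0.42 over the negative arrays, the widest of the 6 subunits. In the probe sets used, the 6 differences ran from -0.08 to 0.18. There 5 of the 6 subunits lay within the negative range, as did 9714 of all 18193 genes. All probe sets of Mcm3 ran from -0.23 to 0.22 and those of Mcm5 from -0.20 to 0.46.

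The factors that load and activate the helicase had ranges from 0.34 log2 units for Gins2 to 1.03 for Cdc45. Cdt1, which brings the helicase to origins, was at 11.56, 11.60 and 12.09 in the negative arrays and 12.12 in the array labelled positive, the highest array, with negative replicate 3 close to it. The difference was 0.37 (SE 0.31, interval -0.49 to 1.23), and a second probe set differed by 0.34. Cdc6, the loading ATPase, was at 10.11, 9.78 and 10.15 against 9.75, the lowest array by 0.03 log2 units. Cdc45, an essential helicase partner, was at 8.29, 8.37 and 9.32 against 8.69, and negative replicate 3 stood above the other arrays. Gins2, a subunit of the GINS partner complex, was at 11.27, 11.26 and 11.52 against 11.60, and its other probe set differed by 0.51.

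Fork, nucleotide and chromatin genes showed the narrowest and the widest spread of the S phase class. Pcna, the sliding clamp, was at 12.89, 12.89 and 12.91 in the negative arrays and 12.90 in the array labelled positive, a range of 0.02 log2 units over all 4 arrays. Its interval was still -0.51 to 0.53, because limma draws the variance of each gene towards that of all genes. Tyms, thymidylate synthase, was at 8.07, 6.81 and 6.97 against 7.93, so that the high values were those of negative replicate 1 and of the array labelled positive, and the groups overlapped. Its 4 probe sets differed by -0.64 to 0.96, and a further probe set annotated to Tyms together with its pseudogene was left out. Rrm1 and Rrm2, the large and small subunits of ribonucleotide reductase, differed by -0.05 and 0.15. Rrm1 was at 11.86, 11.87 and 12.07 against 11.88, and Rrm2 at 11.99, 11.74 and 11.87 against 12.02. Slbp, which binds the stem-loop of histone mRNA, was at 11.49, 11.40 and 11.72 against 11.39. Chaf1b, a subunit of the histone chaperone that loads nucleosomes behind the fork, was at 10.25, 10.31 and 10.00 against 10.30, inside the negative range.

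The E-type cyclins, which drive entry into S phase, both had positive differences. Ccne1 was at 8.76, 9.41 and 9.84 in the negative arrays and 9.72 in the array labelled positive, a difference of 0.38 (SE 0.49), and its second probe set differed by 0.56. The negative arrays alone covered more than 1 log2 unit. Ccne2 was at 7.46, 7.23 and 7.52 against 7.71, 0.19 above the highest negative array, with a difference of 0.31 (SE 0.23).

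**Figure D3:**
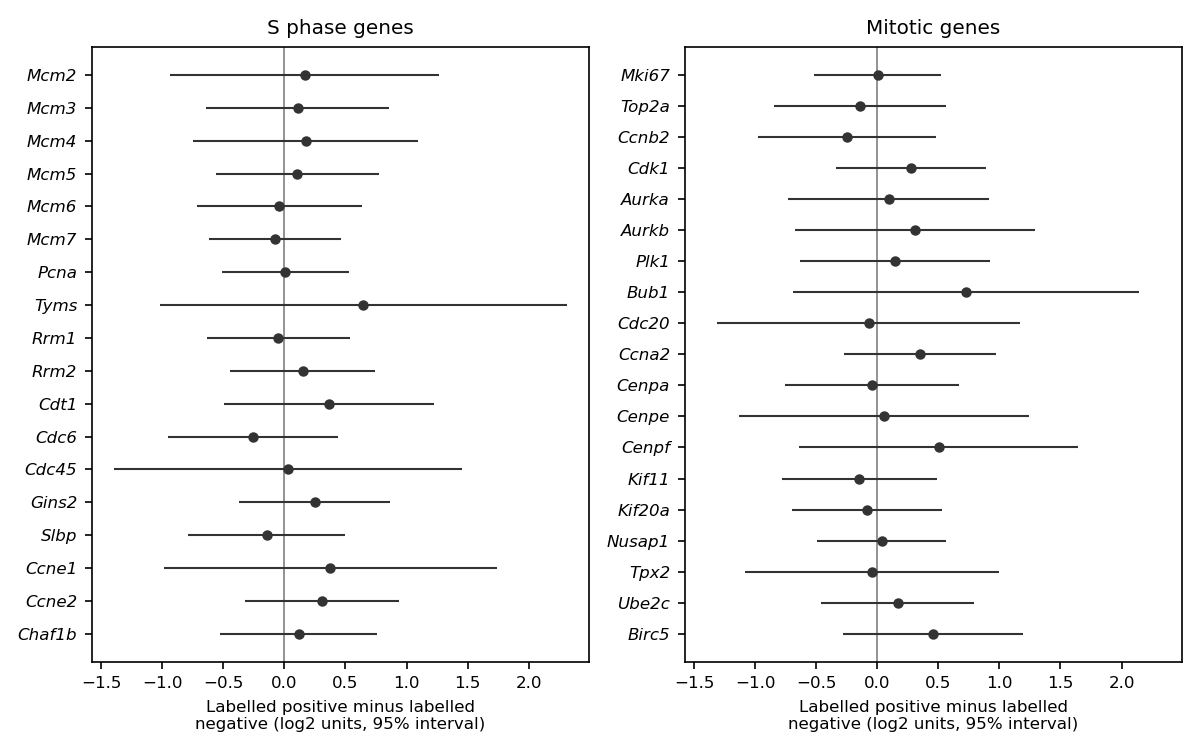
Difference in log2 intensity, labelled positive minus the mean of labelled negative, for each S phase gene (left) and mitotic gene (right), with the 95% interval from limma. Every interval includes 0, and the widest belong to Tyms, Bub1 and Cdc45.

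Among the mitotic genes, the cyclins and their kinase did not share a direction. Cdk1, the mitotic kinase, was at 10.77, 10.77 and 11.01 in the negative arrays and 11.13 in the array labelled positive, a difference of 0.28 (SE 0.22, interval -0.34 to 0.89). Ccna2, its S phase and early mitotic cyclin, was at 11.32, 11.12 and 11.40 against 11.63, and its second probe set differed by 0.28 beside 0.35. Ccnb2, a B-type cyclin, was at 10.91, 11.18 and 11.36 against 10.90, just below the lowest negative array. The array labelled positive was thus the highest for Cdk1 and Ccna2 and the lowest for Ccnb2, by 0.11, 0.23 and 0.01 log2 units.

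The Aurora and Polo kinases, which act on centrosomes, chromosomes and spindle, lay within the negative range in the probe sets used. Aurka was at 11.00, 10.45 and 10.77 against 10.83 in the array labelled positive. Its other probe set was much weaker, at 6.37, 5.71 and 5.94 against 5.19. That probe set lay below the negative range and differed by -0.82, and the average of both by -0.36. Aurkb, the kinase of the chromosomal passenger complex, was at 10.31, 10.80 and 11.02 against 11.02, while its other probe set differed by 0.41, above the range. Plk1 was at 9.39, 9.73 and 9.88 against 9.81. In the probe sets used for Aurkb and Plk1, negative replicate 1 was the lowest. Birc5 (survivin), a partner of Aurkb, was at 10.92, 11.05 and 11.36 against 11.57. Its difference of 0.46 (SE 0.26, interval -0.28 to 1.19) had the lowest unadjusted p of the members, 0.160 in limma.

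Among the kinetochore and checkpoint members, Bub1 and Cenpf differed by over 0.5 log2 units and Cenpe and Cenpa by under 0.1. With probe sets averaged, Bub1 differed by 0.22 and Cenpf by -0.24. Bub1, a checkpoint kinase, was at 8.75, 8.33 and 9.46 in the negative arrays and 9.57 in the array labelled positive, again with negative replicate 3 as its nearest array. The difference was 0.73 (SE 0.50, interval -0.69 to 2.14), while its other probe set differed by -0.29. Cenpf, a kinetochore protein of late cell cycle, was at 9.40, 10.28 and 9.89 against 10.36, and its other probe sets differed by -0.30 and -0.91. The last of these was weak, at 5.51, 4.80 and 6.01 against 4.53. Cenpe, a kinetochore motor, was at 9.16, 9.69 and 10.08 against 9.70. Cenpa, the histone variant of centromeres, was at 9.67, 9.64 and 10.02 against 9.73, a difference of -0.04. The other probe sets of Cenpa differed by 1.23 and -1.49, in opposite directions.

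In the probe sets used, spindle and chromosome genes were near each other in the labelled groups. Top2a, the topoisomerase that untangles chromosomes, was at 10.53, 10.93 and 10.71 against 10.58 in the array labelled positive, and Kif11, the motor that pushes spindle poles apart, at 10.72, 10.96 and 10.66 against 10.63. In both, negative replicate 2 was the highest. Kif20a, a motor of cytokinesis, was at 10.25, 10.12 and 10.41 against 10.18. Nusap1, a microtubule-binding protein, was at 11.25, 11.21 and 11.17 against 11.25, a range of 0.08 over all arrays. Tpx2, the spindle activator of Aurora A, was at 10.12, 10.37 and 10.88 against 10.41, inside a wider negative range. The probe set used for Kif11 differed by -0.15, but its others by 0.23, above the negative range, and 0.14. The other probe sets of Top2a differed by 0.04 and -0.25 and that of Nusap1 by -0.19. All probe sets of Tpx2 ran from -0.39 to 0.24.

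The general proliferation marker had a range of 0.03 log2 units over the 4 arrays, and the genes of mitotic exit 0.33 (Ube2c) and 0.96 (Cdc20). Mki67, the antigen Ki-67 used to mark cycling cells, was at 12.72, 12.70 and 12.73 in the negative arrays and 12.72 in the array labelled positive. Its difference was 0.01 (SE 0.19, interval -0.52 to 0.53). Ube2c, the ubiquitin-conjugating enzyme of the anaphase-promoting complex, was at 13.00, 13.20 and 13.30 against 13.33, 0.03 above the highest negative array. Cdc20, its activator, was at 10.95, 11.55 and 10.59 against 10.96. Negative replicates 2 and 3 were the extremes for Cdc20, and the groups overlapped. Its other 2 probe sets lay above the negative range and differed by 0.10 and 0.25.

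Several genes were measured by more than 1 probe set, which do not always read the same transcript ends. In 17 of 27 such genes the probe sets disagreed in sign, 8 of 15 S phase and 9 of 12 mitotic genes. Only 10 of the 17 had all their probe sets above the median level. In the rest a weak probe set was among those that disagreed or agreed. Of the 47 probe sets that were not used, 25 had the sign of the one used, and 36 lay above the median level. All 4 probe sets of Mcm7 gave -0.08 to -0.03, all 3 of Mcm6 -0.12 to -0.04 and both of Gins2, Ccne1, Aurkb and Ccna2 positive values. The probe set used ended in x_at or s_at, which marks probes that may match other transcripts, in 9 genes. These were Mcm3, Mcm4, Mcm5, Mcm6, Mcm7, Rrm2, Ccne1, Aurkb and Cdc20. Without such probe sets Mcm4, Mcm5 and Rrm2 turned to -0.05, -0.20 and -0.05 and Cdc20 to 0.10, and the S phase median was 0.02. In that setting 4 of 36 members differed by at least 0.5 log2 units, against 20.5% of all genes.

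**Figure D4:**
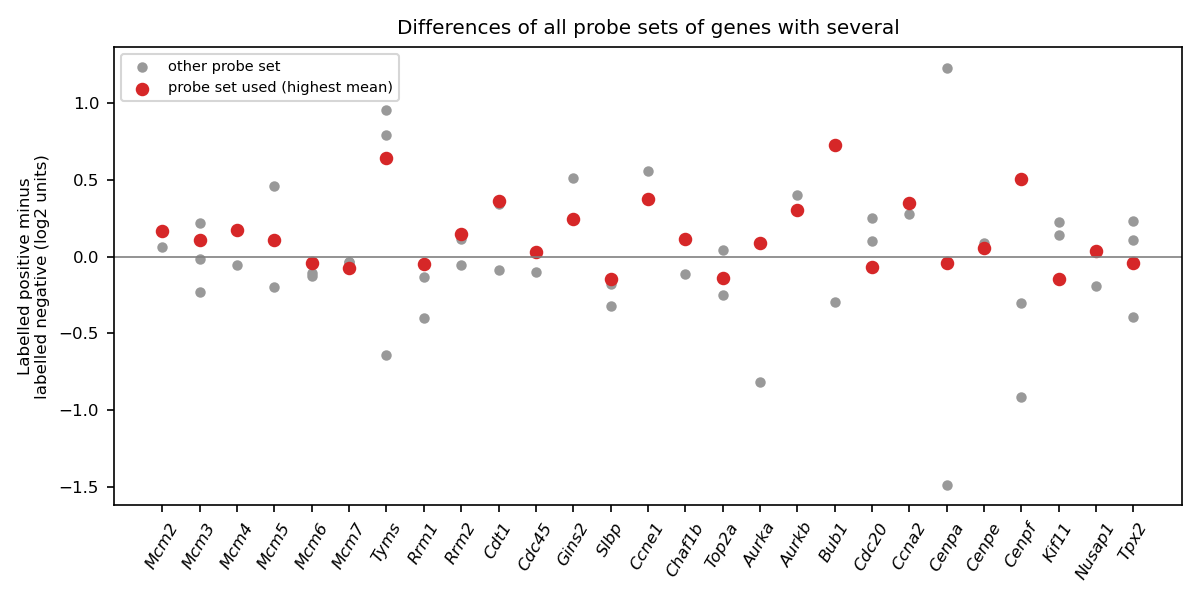
Difference in log2 intensity, labelled positive minus labelled negative, for every probe set of the 27 members with more than 1. Red points are the probe sets used and grey points the others, which for Cenpa reach 1.23 and -1.49.

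The other genes of both pathways were read from 8 lists holding 186 genes, of which 182 were measured. limma called 0 of the 182 (4 at an unadjusted p under 0.05), and 57 lay above and 26 below the negative range, 31.3% and 14.3%, where all genes gave 23.6% and 23.0%. The median difference was 0.08 log2 units, from -0.12 in the replication fork list to 0.21 in the kinetochore and checkpoint list. The fork list had a median of 0.03 with probe sets averaged and 0.08 without x_at and s_at probe sets. Against negative replicate 3 alone, the median of the 182 genes was -0.06, against 0.19 and 0.16 for negative replicates 1 and 2. Their mean level was thus higher in negative replicate 3 (9.78) and the array labelled positive (9.73) than in negative replicates 1 (9.52) and 2 (9.56).

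Of 23 genes of origin licensing and firing, 8 lay above and 3 below the negative range (34.8% and 13.0%). All genes gave 23.6% and 23.0%. Rif1, a regulator of origin timing, was at 8.92, 8.82 and 9.15 in the negative arrays and 9.70 in the array labelled positive, and its 4 probe sets differed by 0.18 to 1.12. Dbf4, the activating subunit of the origin-firing kinase Cdc7, was at 9.02, 9.46 and 9.67 against 10.06, and Wdhd1, a fork scaffold, at 9.66, 9.62 and 9.20 against 10.08. All 3 lay above every negative array, and none passed limma, at an adjusted p of 1.00. The 3 genes named for each list have its largest absolute limma t in this same comparison. Their place outside the range therefore follows largely from that choice. Of 21 fork enzymes, 7 lay above and 8 below (33.3% and 38.1%). Prim1, the catalytic subunit of primase, was at 10.82, 10.53 and 10.94 against 11.30, Rfc4, a clamp loader subunit, at 9.84, 9.71 and 10.03 against 10.28, and Pold3, a polymerase delta subunit, at 10.29, 10.17 and 10.34 against 9.93. The other 2 probe sets of Pold3 differed by 0.02 and 0.07. Of 17 measured genes of nucleotide supply and replicating chromatin, 6 lay above and 4 below (35.3% and 23.5%). Tk1, thymidine kinase, was at 9.72, 9.78 and 10.22 against 10.41, and Dck, deoxycytidine kinase, at 10.11, 9.93 and 9.69 against 9.49. Rrm2b, the p53-dependent reductase subunit, differed by 0.55 in the probe set used and by -0.53 to -0.76 in its 3 others.

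Of 19 cell cycle transcription factors, 7 lay above and 1 below the negative range (36.8% and 5.26%), where all genes gave 23.6% and 23.0%. Their median difference was 0.13, which was 0.07 without negative replicate 1 and 0.30 without replicate 3. E2f5, an E2F of the repressor branch, was at 6.20, 5.74 and 6.60 in the negative arrays and 7.08 in the array labelled positive, and E2f2, an activator, at 10.67, 10.73 and 10.94 against 11.27. Lin54, the CHR-binding subunit of the DREAM and B-Myb complexes, was at 8.02, 7.89 and 8.33 against 8.84, and its other probe set differed by -0.06. All 3 were highest in the array labelled positive, with negative replicate 3 next, although 1 of the 3 probe sets of E2f5 differed by -0.21. These 3 too were named for the largest absolute limma t of their list, so this place follows largely from the choice.

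Of 33 measured kinetochore and checkpoint genes, 10 lay above and 2 below the negative range (30.3% and 6.06%). All genes gave 23.6% and 23.0%. Cenpl, a centromere protein, was at 6.84, 6.75 and 7.62 in the negative arrays and 8.27 in the array labelled positive, a difference of 1.20 (SE 0.43). Cenpp, another, was at 8.05, 8.47 and 9.14 against 9.56, and Nuf2, of the microtubule-binding complex, at 9.17, 8.77 and 9.09 against 9.76. The median of this list was 0.21, but 0.04 without negative replicate 1, 0.12 without replicate 2 and 0.36 without replicate 3. Of 25 genes of spindle motors and cytokinesis, 7 lay above and 4 below (28% and 16%). Their median was -0.01, or 0.18 without negative replicate 3. Kifc1, a minus-end directed motor, was at 7.46, 7.42 and 7.68 against 6.48, a difference of -1.03 (SE 0.22), while Spag5 (astrin) was at 8.24, 8.52 and 8.90 against 9.31 and Kif4, a chromosome motor, at 7.99, 7.40 and 7.89 against 8.36. The probe sets of Spag5 differed by -0.37 to 0.75.

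Of 20 cohesin and condensin genes, 6 lay above and 2 below the negative range (30% and 10%), and none differed by 0.5 log2 units. All genes gave 23.6% and 23.0%. Stag2, a cohesin subunit, was at 9.30, 9.43 and 9.40 in the negative arrays and 9.84 in the array labelled positive, and Ncapd2, of condensin, at 11.32, 11.01 and 11.04 against 10.83. Pttg1 (securin) differed by 0.46 in the probe set used and by -0.34 and -0.25 in its others. Of 24 regulators of mitotic entry and exit, 6 lay above and 2 below (25% and 8.33%). Cdc25c, a phosphatase that activates Cdk1, was at 8.30, 8.54 and 9.21 against 7.61, a difference of -1.07 (SE 0.43), and its other probe set differed by -0.35. Mastl (Greatwall kinase) was at 7.23, 7.21 and 7.26 against 7.74, and Cdc23, a subunit of the anaphase-promoting complex, at 9.59, 9.82 and 10.05 against 10.46. The other probe sets of Mastl differed by 0.65 and -0.07, and those of Cdc23 by -0.15 and -0.22. Each of these genes had a limma adjusted p of 1.00.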

How the data were processed

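Affymetrix values of 4 arrays were analysed. Per the labels' protocols, 5 ng of total RNA was amplified with a Nugen Ovation system before biotin labelling. The deposited values are RMA intensities, per the submitters' processing notes, and lie on a linear scale from 4.27 to 27451.5. RMA equalizes arrays, which hides any difference in RNA content per cell, and array number limits the precision. The software was not given in the sources used here. Intensities were turned into log2 values, a step the design foresaw for linear values. Of 45101 probe sets, 64 controls were left out, 34945 had 1 symbol, 932 several and 9160 none. The brightest probe set (by mean) of each of 18193 genes was fitted in limma 3.58.1 (R 4.3.3; lmFit and eBayes, two-sided, Benjamini-Hochberg over all genes, threshold 0.05), with 2 residual degrees of freedom. The members and lists were chosen with earlier results of these data known. Named are all members, the 3 genes of each pathway list with the largest absolute moderated t, markers and Hes1. Alternatives covered normalization, centring, filter, probe set choice, a pseudocount of 16, variance model and left-out replicates.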

Additional observations from a re-analysis of the deposited data

How the results depend on the processing

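limma called 0 genes, 0 S phase and 0 mitotic members under each of 12 alternatives. Differences of the members' sizes could not be resolved with 4 arrays or fewer, so these counts of 0 say nothing about stability. The S phase median difference ran from 0.019 to 0.11 log2 units over 10 alternatives. Its shift was set against 0.08 log2 units, the SD of the S phase list mean over the 3 negative arrays. The median moved by more than that only without x_at and s_at probe sets, to 0.019. That alternative was chosen after seeing the data, and Aurkb could not be measured in it. The mitotic median ran from 0.003 to 0.17. After cyclic loess 5 S phase and 4 mitotic genes lay below the negative range, where 23.7% of all genes did. With centred arrays 1 mitotic gene did (22.8% of all genes), and with averaged probe sets 4 (23.1% of all genes). Leaving out each negative replicate, which narrows the range, gave 6 to 9 S phase and 7 to 11 mitotic genes above it. Below it lay 2 to 4 mitotic genes. Without replicates 1, 2 and 3 in turn, 30.1%, 31.1% and 36.1% of all genes lay above the range. The shares of all genes below it were 34.2%, 30.3% and 31.4%. The cause of these shifts was not tested. Of 37 members, 19 kept the sign of their difference under every alternative, and 18 did not. No paired analysis was possible because the labelled groups share only replicate number 1. Without detection calls, signal over background could not be judged.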
